A study of Rattus norvegicus with 4 samples.

Results

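The histone deacetylase (HDAC) genes of rat Schwann cells (SCs) were followed after expression of the Egr2-AS, the RNA transcribed antisense to the Egr2 promoter. The members are the genes Hdac1, Hdac2, Hdac3, Hdac4, Hdac5, Hdac6, Hdac7, Hdac8, Hdac9 and Hdac11, taken by their symbols from the deposited table of read counts. Of these 10 genes, 8 have a row among the 17949 genes, and all 8 had enough reads to be tested (12446 genes were tested in all). Hdac6 and Hdac7 were not analysed here. RNA-seq was performed on primary SCs of rat sciatic nerve, grown in medium with 10% serum, 4 μM forskolin, which raises cyclic AMP, and 5 ng/ml heregulin-β1, an ErbB ligand. RNA was taken 48 h after infection with a lentivirus for the Egr2-AS (Lenti-AS, 2 samples) or for GFP (Lenti-GFP, 2 samples). The reporters also differ, since Lenti-AS was built in a vector with a red fluorescent protein. The table has no row for the Egr2-AS, so its level could not check the labels. The labels call the samples biological replicates and do not say which animals or cultures they came from, so p-values measure the spread between these samples. The comparison asks whether expression of the Egr2-AS went with a different abundance of HDAC transcripts.

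HDACs remove acetyl groups from lysines of histones and other proteins. Class I enzymes (HDAC1, HDAC2, HDAC3 and HDAC8) are mainly nuclear, and HDAC1 and HDAC2 work inside the NuRD, Sin3, CoREST and MiDAC corepressor complexes, whereas HDAC3 works with NCoR corepressors. Class IIa enzymes (HDAC4, HDAC5, HDAC7 and HDAC9) have little deacetylase activity of their own, shuttle between cytoplasm and nucleus under the control of kinases, and bind MEF2 transcription factors. HDAC6 is a class IIb enzyme of the cytoplasm, and HDAC11 is the only class IV enzyme. In SCs, HDAC1 and HDAC2 are required for myelination, together with Sox10 and Egr2, and HDAC4 is known to repress Jun with NCoR1 when cyclic AMP rises.

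The promoters of 9 of the 10 genes are held in the RefSeq sequences of the rat GRCr8 assembly (the table has none for Hdac11). The first listed entry of each gene was used, so any other start of a gene is not covered. Those of Hdac2 and Hdac9, the members with an unadjusted p under 0.05, and of Hdac1, the partner of Hdac2, are shown for the 250 bases before the transcription start, 5′ to 3′ on the gene's strand. Capitals mark GC boxes (GGGCGG) and CCAAT boxes (CCAAT), each on either strand.
Hdac1, GRCr8 chr5:147165388-147165637, minus strand: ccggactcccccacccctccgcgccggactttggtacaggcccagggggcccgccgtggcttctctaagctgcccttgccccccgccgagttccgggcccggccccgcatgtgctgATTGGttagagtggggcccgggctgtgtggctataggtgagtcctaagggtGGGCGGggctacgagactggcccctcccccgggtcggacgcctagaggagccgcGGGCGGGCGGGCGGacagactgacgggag
Hdac2, GRCr8 chr20:42102877-42103126, plus strand: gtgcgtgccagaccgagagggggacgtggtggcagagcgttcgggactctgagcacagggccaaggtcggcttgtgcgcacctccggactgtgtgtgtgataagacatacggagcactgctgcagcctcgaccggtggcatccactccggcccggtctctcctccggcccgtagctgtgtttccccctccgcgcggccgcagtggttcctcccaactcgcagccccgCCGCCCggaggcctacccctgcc
Hdac9, GRCr8 chr6:57052572-57052821, minus strand: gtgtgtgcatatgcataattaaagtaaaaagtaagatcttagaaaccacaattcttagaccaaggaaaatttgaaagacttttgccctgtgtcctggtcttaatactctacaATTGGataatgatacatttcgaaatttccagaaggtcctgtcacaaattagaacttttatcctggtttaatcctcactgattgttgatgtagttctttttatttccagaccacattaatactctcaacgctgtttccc

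The promoters differ in composition, with 72.4% G and C for Hdac1, 68.8% for Hdac2 and 34.4% for Hdac9, where the median of all rat promoters of this length is 51.2%. Hdac8, lower in both Lenti-AS samples like Hdac1 and Hdac2, has 38.8%, and Hdac4, higher in both like Hdac9, has 64.4%. In the 300 bases that run from 250 before to 50 after the start, Hdac1 holds 5 GC boxes, of which 3 form an overlapping run, Hdac4 holds 3, Hdac2 holds 1, and Hdac8 and Hdac9 hold 0. A GC box occurs in 6 of the 9 HDAC promoters and in 33.1% of the 33469 rat promoters of that length. A CCAAT box is present for Hdac1, Hdac4, Hdac5, Hdac6 and Hdac9 but not for Hdac2, Hdac3, Hdac7 or Hdac8, and in 37.5% of all promoters. The YY1 motif (AANATGGC, either strand), searched because YY1 is a transcription factor the study examines, is present in Hdac1 alone among the 9, as AAGATGGC at bases 16 to 23 after the start, and in 6.96% of all promoters. The AP-1 motif (TGANTCA, either strand), which Jun dimers bind, is in none of the 9 and in 7.33% of all promoters. The set of all rat promoters was not reduced to the first entry of each gene. These matches describe letters in a window and are not evidence of binding.

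Counts summed to between 74024323 and 96185890 reads per sample, and values are given as counts-per-million (CPM) on library sizes scaled by edgeR's TMM method. The cells carried the SC markers S100b, Erbb3, Ngfr and Sox10 in all samples, and markers of other cells were present in part. Of the fibroblast markers, Dcn, Lum and Thy1 had at most 3 reads per sample, but the collagen gene Col3a1 had 180449 to 304383. Of the macrophage markers, Aif1 and Adgre1 had at most 3 reads, but Csf1r had 170 to 182 and Cd68 112 to 161. The globin genes stood apart in Lenti-AS 2, with 255260 reads on 7 rows against 460 to 944 in the other samples. The Lenti-AS samples also differed from each other in Sox10 (163 and 61.2 CPM). Levels summed over a marker list were 6485 and 6447 CPM under Lenti-GFP and 8266 and 7010 CPM under Lenti-AS for SCs (7 of 8 genes tested, 0 called by edgeR or DESeq2). For fibroblasts they were 4104 and 3680 CPM and 4333 and 2694 CPM (3 of 6 tested, 0 called by edgeR and 1 by DESeq2), with Col1a1 at 186781 reads in Lenti-AS 1 and 21807 in Lenti-AS 2. DESeq2 called Col3a1, at 3261 and 2955 CPM under Lenti-GFP and 2198 and 2400 CPM under Lenti-AS (log2 fold change -0.43, adjusted p = 0.0520 from edgeR and 4.86e-06 from DESeq2). For macrophages the sums were 3.42 and 3.50 CPM and 4.13 and 4.28 CPM (3 of 6 tested, 0 called by edgeR or DESeq2). Because the Lenti-AS libraries differ in this way, members are also given with a sample left out. Transcript lengths were not used here, so levels are compared between samples and not between genes.

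No HDAC gene passed the study's cut-offs between Lenti-AS and Lenti-GFP. The quasi-likelihood test of edgeR gave 0 of the 8 genes an adjusted p under 0.05 with a fold change of 1.3 or more, where 1.98% of all genes tested had both, and 0 an adjusted p under 0.05 at any fold (2.18% of all genes tested). At an unadjusted p under 0.05 there were 2 of the 8, Hdac2 and Hdac9, where 21.8% of all genes tested lay. DESeq2 also called 0 of the 8 by both cut-offs (6.25% of the genes to which it gave an adjusted p), and 1, Hdac2, by the adjusted p alone (13.1%). The median absolute log2 fold change of the 8 genes was 0.15, and that of all genes tested was 0.15. Hdac1, Hdac2 and Hdac8 were lower in both Lenti-AS samples than in both Lenti-GFP samples, and Hdac4 and Hdac9 were higher in both. All genes tested showed such a separation downward in 27.2% and upward in 27.7% of cases. In bulk RNA a smaller number of cells that express a gene and less RNA per cell cannot be told apart.

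**Figure D1:**
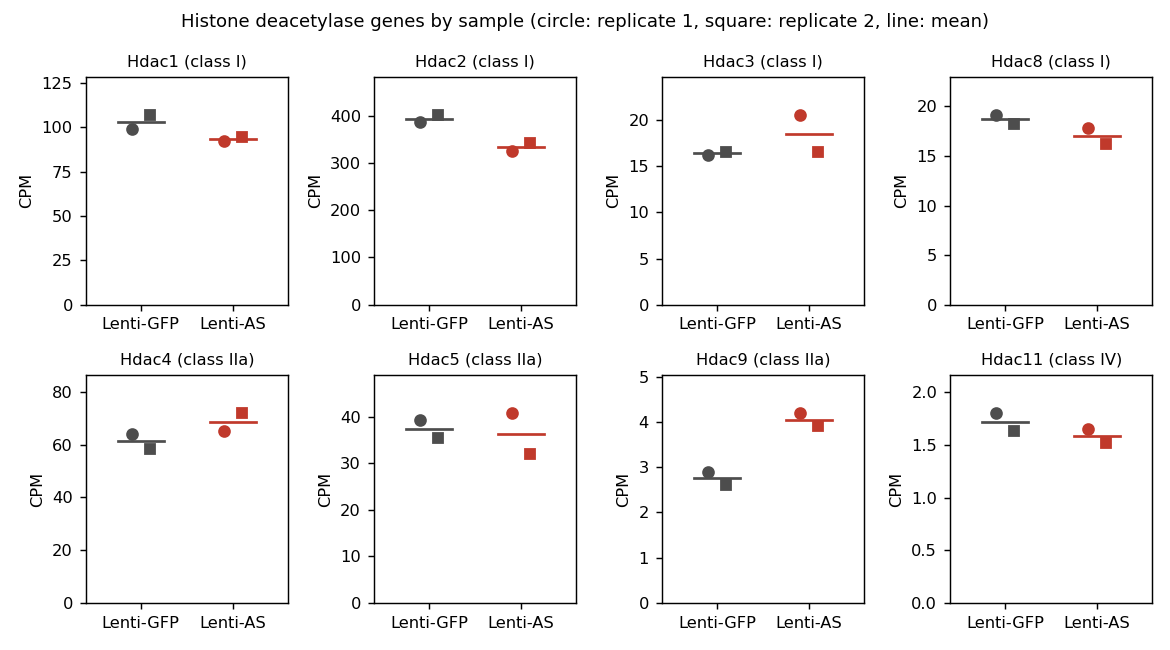
CPM (vertical axis, from 0) of the 8 HDAC genes in each sample, with Lenti-GFP in grey and Lenti-AS in red, circles for replicate 1, squares for replicate 2 and lines for the group means. The groups separate without overlap for Hdac1, Hdac2, Hdac8, Hdac4 and Hdac9 and overlap for Hdac3, Hdac5 and Hdac11.

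Hdac2, which encodes a catalytic subunit of the NuRD, Sin3 and CoREST complexes, was at 387 and 402 CPM under Lenti-GFP, against 325 and 343 CPM under Lenti-AS. Both Lenti-AS values were the lower ones, and 43.7 CPM separated the groups, where the samples of a group were 15.0 and 18.1 CPM apart. The means were 394 ± 10.6 CPM under Lenti-GFP and 334 ± 12.8 CPM under Lenti-AS (SD of 2 samples each), a log2 fold change of -0.24 (standard error 0.06) or 0.847-fold. The edgeR test gave an unadjusted p = 0.00558 and an adjusted p = 0.0946, with a 95% interval from 0.770-fold to 0.933-fold. With DESeq2 the log2 fold change was also -0.24 and the adjusted p = 0.00623, so the gene passed the threshold on p with that tool and stayed under the fold cut-off with both. Its direction was the same with each sample left out, with log2 fold changes from -0.28 to -0.20. Without Lenti-AS 1 the adjusted p was 0.0222 and without Lenti-AS 2 it was 0.000965, settings in which 20.1% and 25.3% of all genes tested had an adjusted p under 0.05. Without Lenti-GFP 1 or Lenti-GFP 2 it was 0.475 or 0.681, with 0.00816% of all genes tested under 0.05 in either fit. The list of endothelial markers was lower in the same libraries, with a summed level of 20.6 and 20.5 CPM under Lenti-GFP and 15.8 and 15.1 CPM under Lenti-AS, nearly all of it Tek, while Cdh5 had at most 5 reads and Pecam1 at most 33. EdgeR called 0 of the 3 tested and DESeq2 called Tek (log2 fold change -0.42, adjusted p = 0.0559 from edgeR and 0.00324 from DESeq2). Tek, Col3a1 and the SC marker Cdh19 were lower in the Lenti-AS libraries like Hdac2, and their part in its value was not tested.

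Hdac1, the partner of Hdac2 in the same complexes, had 99.3 and 107 CPM under Lenti-GFP, against 92.4 and 94.3 CPM under Lenti-AS. The Lenti-AS samples were again the lower pair, but the gap of 4.99 CPM between the groups was smaller than the 7.63 CPM between the Lenti-GFP samples. Hdac1 had a log2 fold change of -0.14 (standard error 0.06), with an edgeR adjusted p = 0.259 and an interval from 0.811-fold to 1.01-fold. It ran from -0.19 without Lenti-GFP 1 to -0.0884 without Lenti-GFP 2. The table also has a row for Hdac1l, a gene named as Hdac1-like, and short reads can be split between such copies, so the counts of both are uncertain. Hdac1l had 80.1 and 85.0 CPM under Lenti-GFP, against 63.8 and 74.9 CPM under Lenti-AS (log2 fold change -0.25, adjusted p = 0.202 from the same test). For each read on Hdac1 there were 0.807 and 0.795 reads on Hdac1l in the Lenti-GFP libraries and 0.691 and 0.795 in the Lenti-AS libraries, so Lenti-AS 1 differed from the other 3. With both rows summed, an alternative chosen after the copy was seen, the log2 fold change of Hdac1 was -0.19 (edgeR adjusted p = 0.179). Reads on Hdac1 per read on Hdac2 were 0.257 and 0.266 in Lenti-GFP and 0.284 and 0.275 in Lenti-AS.

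Hdac3 encodes the enzyme of the NCoR complexes, and its value in Lenti-AS rested on a single library. It had 16.3 and 16.6 CPM under Lenti-GFP, 20.6 CPM in Lenti-AS 1 and 16.5 CPM in Lenti-AS 2, which lay between the Lenti-GFP samples. The fit gave 0.18 on the log2 scale (standard error 0.12, edgeR adjusted p = 0.416), and it was 0.33 without Lenti-AS 2 (adjusted p = 0.0116, a fit with 25.3% of all genes tested under 0.05) and 0.0094 without Lenti-AS 1 (adjusted p = 0.962). Hdac8, a class I enzyme that acts on the cohesin subunit SMC3, had 19.1 and 18.3 CPM under Lenti-GFP, against 17.9 and 16.2 CPM under Lenti-AS. The groups were 0.396 CPM apart, less than the 0.880 and 1.68 CPM within them, and the log2 fold change was -0.14 (standard error 0.08, edgeR adjusted p = 0.395), from -0.21 without Lenti-AS 1 to -0.0661 without Lenti-AS 2.

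Among the class IIa genes, Hdac9 showed the largest fitted difference of the family. It had 2.89 and 2.61 CPM under Lenti-GFP, against 4.19 and 3.91 CPM under Lenti-AS, from 270, 247, 367 and 294 reads. Both Lenti-AS samples lay above both Lenti-GFP samples, with a gap of 1.02 CPM against 0.286 and 0.276 CPM within the groups. The log2 fold change was 0.56 (standard error 0.16), or 1.47-fold with a 95% interval from 1.12-fold to 1.93-fold. The unadjusted p was 0.0132 and the edgeR adjusted p = 0.131, and DESeq2 gave an adjusted p = 0.0830. It ranged from 0.49 to 0.64 with each sample left out, and it passed both cut-offs without Lenti-AS 2 (adjusted p = 0.0176), where 12.3% of all genes tested were called.

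Hdac4, whose product represses Jun in SCs, had 64.0 and 58.5 CPM under Lenti-GFP, against 65.3 and 71.8 CPM under Lenti-AS. Lenti-AS 1 was 1.23 CPM above the nearest Lenti-GFP sample, so the groups nearly touched. The log2 fold change was 0.16 (standard error 0.08, edgeR adjusted p = 0.320), with an interval from 0.969-fold to 1.29-fold, and it depended on the sample left out. Without Lenti-AS 1 it was 0.23 (adjusted p = 0.0156, a fit with 20.1% of all genes tested under 0.05), without Lenti-GFP 1 also 0.23 (adjusted p = 0.589), without Lenti-AS 2 it was 0.0911 (adjusted p = 0.372) and without Lenti-GFP 2 it was 0.0986 (adjusted p = 0.859). Hdac5 had 39.3 and 35.4 CPM under Lenti-GFP, 40.7 CPM in Lenti-AS 1 and 32.0 CPM in Lenti-AS 2. The Lenti-AS samples were thus the highest and the lowest of the 4, and the log2 fold change of -0.04 (standard error 0.13, edgeR adjusted p = 0.878) changed sign with the sample left out, from -0.22 without Lenti-AS 1 (adjusted p = 0.0455) to 0.12 without Lenti-AS 2 (adjusted p = 0.283). Reads on Hdac9 per read on Hdac4 were 0.0452 and 0.0445 in Lenti-GFP and 0.0641 and 0.0545 in Lenti-AS.

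Hdac11, the class IV gene, had 1.80 and 1.64 CPM under Lenti-GFP, against 1.65 and 1.52 CPM under Lenti-AS, from 114 to 168 reads per sample. The groups overlapped, and the log2 fold change of -0.11 (standard error 0.20, edgeR adjusted p = 0.772) has an interval from 0.657-fold to 1.3-fold, the widest on the log2 scale among the 8 genes. With a sample left out it ran from -0.18 without Lenti-GFP 2 to -0.0410 without Lenti-GFP 1. Hdac10, a class IIb gene outside the listed members, had 3.22 and 2.90 CPM under Lenti-GFP, against 3.80 and 3.26 CPM under Lenti-AS (log2 fold change 0.21, adjusted p = 0.518 from the same test). For Hdac1, Hdac2, Hdac4, Hdac5 and Hdac8 the intervals lie within 1.3-fold of no difference in both directions, while those of Hdac3, Hdac9 and Hdac11 reach or pass it.

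**Figure D2:**
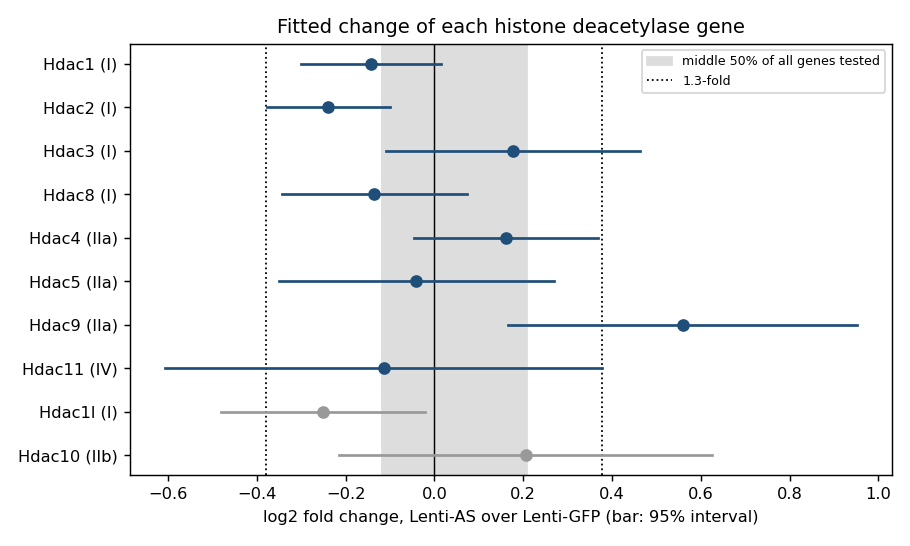
Fitted log2 fold change of Lenti-AS over Lenti-GFP (horizontal axis) for the 8 HDAC genes in blue and for Hdac1l and Hdac10 in grey, with 95% intervals as bars, the middle 50% of all genes tested as a grey band and the fold cut-off of 1.3 as dotted lines. The intervals of Hdac2, below 0, and of Hdac9, above 0, are those among the 8 members that do not include 0.

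**Figure D3:**
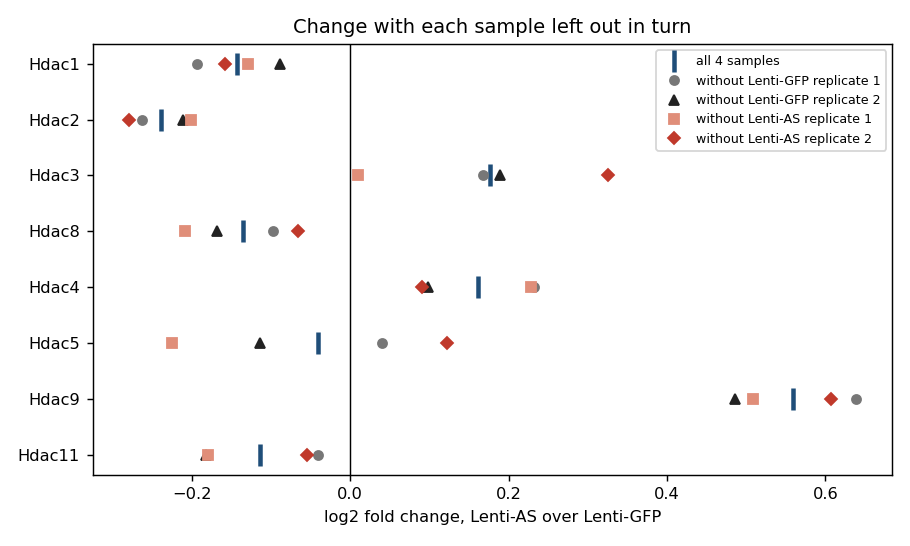
Log2 fold change (horizontal axis) of each HDAC gene with all 4 samples (blue bar) and with each sample left out in turn (symbols). Hdac2 stays between -0.28 and -0.20 and Hdac9 between 0.49 and 0.64, whereas Hdac5 lies on both sides of 0 and Hdac3 runs from 0.0094 to 0.33.

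The corepressor complexes that hold HDAC1, HDAC2 or HDAC3 were examined next, from lists of 40 genes of which 31 were tested. EdgeR called 0 of the 31, with 7 at an unadjusted p under 0.05 (22.6%, against 21.8% of all genes tested), 6 of them higher and 1 lower in Lenti-AS. DESeq2 called 1, the NuRD subunit Gatad2b, where it called 6.25% of the genes to which it gave an adjusted p. Limma-voom and the likelihood ratio test called 0. Their median log2 fold change was 0.11 and that of all genes tested 0.0071. In the NuRD list (8 tested) the values ran from Mta2, at 269 and 274 CPM under Lenti-GFP, against 250 and 266 CPM under Lenti-AS (log2 fold change -0.07), to Gatad2b, at 18.0 and 17.2 CPM and 25.1 and 21.8 CPM (0.41, standard error 0.09, edgeR adjusted p = 0.0857 and 0.0110 from DESeq2). In the Sin3 list (9 tested) they ran from Brms1l (-0.19, edgeR adjusted p = 0.211) to the scaffold gene Sin3a (0.18, adjusted p = 0.313). The NuRD and Sin3 lists had medians of 0.05 and -0.05.

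In the CoREST list (6 tested, median 0.19), the histone demethylase gene Kdm1a had the lowest log2 fold change, -0.12, and the scaffold gene Rcor2 the highest, 0.34, from 76 to 114 reads per sample (adjusted p = 0.304 and 0.518 from edgeR). The NCoR list (5 tested, median 0.21) had its lowest value at Tbl1xr1, with -0.03. The corepressor gene Ncor1 was at 80.0 and 80.4 CPM under Lenti-GFP, against 104 and 92.6 CPM under Lenti-AS, so both Lenti-AS samples were the higher ones. Its log2 fold change was 0.29 (adjusted p = 0.111 from edgeR and 0.0118 from DESeq2), under the fold cut-off. The MiDAC list (3 tested) ran from Dnttip1 (-0.03) to Elmsan1, at 14.0 and 11.2 CPM under Lenti-GFP, against 20.6 and 15.2 CPM under Lenti-AS (0.51, edgeR adjusted p = 0.179).

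Other enzymes that add or remove acetyl groups on lysines were also examined. The acetyltransferases (7 tested), which add acetyl groups, had 0 called by edgeR and a median of 0.16 on the log2 scale. At an unadjusted p under 0.05 there were 3 (where 21.8% of all genes tested lay), all higher in Lenti-AS. The highest was Crebbp, the gene of the coactivator CBP, at 66.0 and 58.4 CPM under Lenti-GFP, against 80.7 and 79.4 CPM under Lenti-AS (log2 fold change 0.36, standard error 0.08, edgeR adjusted p = 0.0845 and 0.00146 from DESeq2, under the fold cut-off). The lowest was Kat8 (-0.12, edgeR adjusted p = 0.377). Among the sirtuins, the NAD-dependent deacetylases of class III, 0 of 6 were called by edgeR and 1 at an unadjusted p under 0.05. This was Sirt2, a tubulin deacetylase found in myelinating glia, at 42.8 and 40.9 CPM under Lenti-GFP, against 70.5 and 52.3 CPM under Lenti-AS (log2 fold change 0.55, standard error 0.14, edgeR adjusted p = 0.111). DESeq2 called Sirt2 by both cut-offs (adjusted p = 0.00242), as it did 6.25% of the genes to which it gave an adjusted p. Sirt3, a mitochondrial enzyme, was the lowest at -0.16 (edgeR adjusted p = 0.232).

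**Figure D4:**
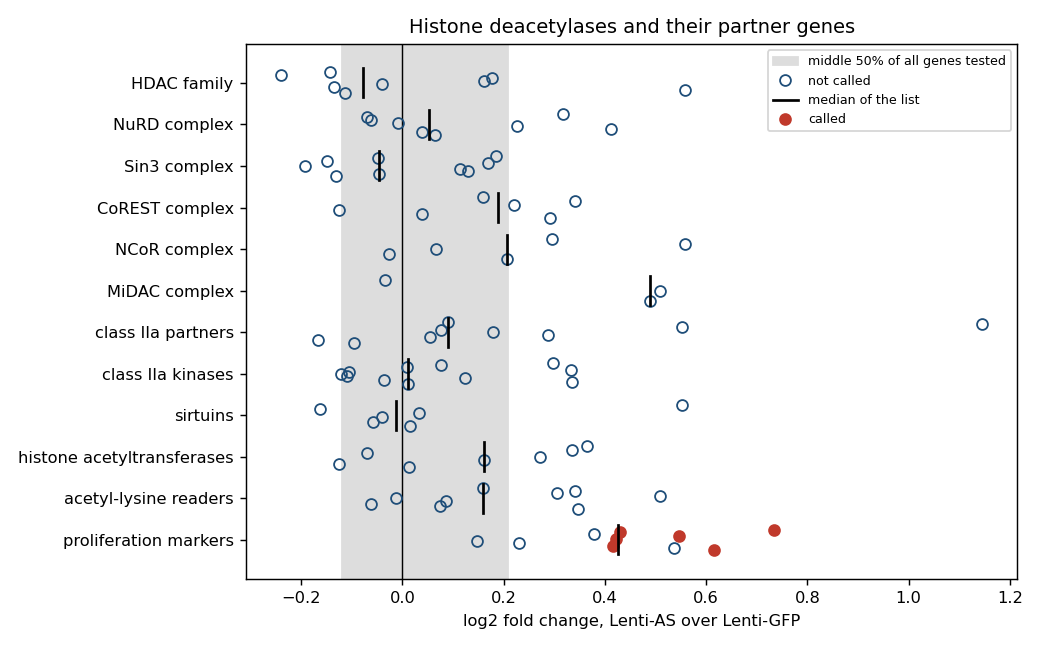
Log2 fold change of Lenti-AS over Lenti-GFP (horizontal axis) of the tested genes in each list, as open blue circles for genes not called and filled red circles for genes called by edgeR, with the median of each list as a black bar and the middle 50% of all genes tested as a grey band. The HDAC and partner lists hold 0 called genes, and the proliferation markers hold 6 of 10, where edgeR called 1.98% of all genes tested.

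SC genes tied to HDACs by earlier knowledge were set beside these values. Cdkn1a, a cell cycle inhibitor gene that class I HDACs repress in many cells, rose from 16.8 and 15.2 CPM under Lenti-GFP to 61.5 and 41.2 CPM under Lenti-AS (log2 fold change 1.68, standard error 0.19, edgeR adjusted p = 0.0247). Jun had 1269 and 1139 CPM under Lenti-GFP, against 895 and 1084 CPM under Lenti-AS. Its log2 fold change was -0.28 (adjusted p = 0.198 from edgeR and 0.0538 from DESeq2). Egr2 had 49.2 and 42.1 CPM under Lenti-GFP, against 61.2 and 54.0 CPM under Lenti-AS. The log2 fold change of Egr2 was 0.33 (adjusted p = 0.152 from edgeR and 0.0336 from DESeq2), under the fold cut-off. The strand setting of the counting is not given in the sources used here. Whether any reads of the Egr2-AS fall in the Egr2 row was not tested. Sox10 had 77.1 and 72.6 CPM under Lenti-GFP and was high in Lenti-AS 1 alone, with a log2 fold change of 0.58 (edgeR adjusted p = 0.440). Of 10 proliferation markers, 6 rose in Lenti-AS by both cut-offs with edgeR and 7 with DESeq2. In either direction, edgeR called 1.98% of all genes tested, and DESeq2 called 6.25% of the genes to which it gave an adjusted p. All 10 markers were higher in both Lenti-AS samples, as were 27.7% of all genes tested. The median difference of the 10 was 0.43 on the log2 scale. Their summed levels were 1222 and 1276 CPM under Lenti-GFP, against 1699 and 1661 CPM under Lenti-AS. The part of these markers in the values of Hdac1, Hdac2 and Hdac9 was not tested.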

How the data were processed

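RNA-seq read counts of 4 samples were analysed, 2 per group, with groups and replicate numbers from the labels. The paired-end reads of 50 bp were aligned by the authors to rn6 (the paper names hisat2, the submitters' processing notes GSNAP), who then counted reads on RefSeq exons with featureCounts and deposited whole-number counts without normalization. A row repeating the header was dropped. The test was the quasi-likelihood test of edgeR 4.0.16 under R 4.3.3 (TMM, glmQLFit, glmQLFTest, defaults) on genes that reached 10 counts in 2 or more samples, with Benjamini-Hochberg adjustment over all 12446 genes. Calls needed an adjusted p under 0.05 and a fold change of at least 1.3. Standard errors and 95% intervals came from the F statistic. The smallest two-sided p that permuting 2 against 2 samples allows is 0.333. Alternatives were DESeq2 1.42.0, limma-voom (limma 3.58.1), other scalings, filters and fits. The test was tried on simulated counts. The members, lists and tests were chosen with earlier results of these data known. All members were named, and of each partner list the called, highest and lowest genes, while others were chosen after their values were seen. Same-numbered samples share no stated culture. Some genes of the lists are not reported here.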

Additional observations from a re-analysis of the deposited data

How the results depend on the processing

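The sign of each HDAC gene's log2 fold change was the same under DESeq2, limma-voom, the likelihood ratio test, the newer quasi-likelihood fit, RLE, upper-quartile and library-total scaling, both other filters, the replicate block, the removal of the globin genes and the summed Hdac1 rows. None of these called a member. The adjusted p of Hdac2 lay between 0.00623 (DESeq2, log2 fold change -0.24) and 0.310, and that of Hdac9 between 0.0830 and 0.197. With each sample left out, log2 fold changes ran from -0.28 to -0.20 for Hdac2, 0.0094 to 0.33 for Hdac3, 0.0911 to 0.23 for Hdac4, -0.22 to 0.12 for Hdac5 (0.04 without Lenti-GFP 1) and 0.49 to 0.64 for Hdac9, and 0 to 1 member was called (Hdac9, without Lenti-AS 2). Over all genes, 163 were called higher and 83 lower. DESeq2 called 488 and 139, the likelihood ratio test 374 and 147, and the replicate block 3 and 14. Leaving out a sample gave 0 to 1260 higher and 1 to 278 lower. Such a fit has 1 sample in an arm, which is assumed to vary like the other group. Over the genes tested, the deviations of Lenti-GFP 1 and Lenti-AS 1 from their group means had a correlation of -0.0176. With 2 samples per group, the deviations of the samples numbered 2 mirror these and add nothing. Under DESeq2, 1 gene was called in the NuRD list (Gatad2b) and 1 among the sirtuins (Sirt2). With a sample left out, 0 to 1 gene was called in the NuRD, NCoR and sirtuin lists, and 0 to 2 in the MiDAC, class IIa partner and reader lists. The cause was not tested. With 2 samples per group, the intervals of Hdac9 and Hdac11, the members with the fewest reads, are the widest on the log2 scale.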

Other observations

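Genes around the class IIa enzymes and the readers of acetylated lysine were also counted. Over all genes tested, edgeR called 1.98%, and 21.8% had an unadjusted p under 0.05. Of 9 tested partners (MEF2 factors and the Ywha adaptor proteins that hold phosphorylated class IIa HDACs in the cytoplasm), edgeR called 0 and 2 had an unadjusted p under 0.05. The lowest was Ywhaq, at 864 and 899 CPM under Lenti-GFP, against 815 and 756 CPM under Lenti-AS (log2 fold change -0.17, adjusted p = 0.195 from edgeR), and the highest Mef2b, which stayed under 1 CPM in all samples (1.15, adjusted p = 0.254). Another MEF2 gene, Mef2d, had 5.21 and 4.17 CPM under Lenti-GFP, against 8.45 and 5.27 CPM under Lenti-AS (0.55, adjusted p = 0.265 from edgeR). Of 11 tested kinases of class IIa HDACs, edgeR called 0 and none had an unadjusted p under 0.05, with values from Camk1 (-0.12) to Camk2g (0.34). Of 9 bromodomain readers, edgeR called 0 and 2 had an unadjusted p under 0.05 (21.8% of all genes tested), both higher in Lenti-AS. The lowest was Brd9 (-0.06, adjusted p = 0.650 from edgeR).

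Sinhcaf, a subunit of the Sin3-HDAC complex that was outside the lists and was chosen after its values were seen, has a row of its own and a row with the suffix of a copy, so its reads may be split and both values are uncertain. The row Sinhcaf had 14.9 and 13.9 CPM under Lenti-GFP, against 12.2 and 11.8 CPM under Lenti-AS (log2 fold change -0.26, adjusted p = 0.176 from edgeR). The row of the copy had 20.8 and 20.0 CPM under Lenti-GFP, against 16.0 and 17.2 CPM under Lenti-AS (log2 fold change -0.30, adjusted p = 0.115). Both rows were lower in both Lenti-AS samples, without a call by edgeR or DESeq2.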
